A study of Mus musculus with 60 samples.

Results

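The 10 genes described here encode enzymes that carry long-chain fatty acids into mitochondria and break them down there. They are Cpt1b, Cpt2, Acadl, Acadm, Acadvl, Hadha, Hadhb, Acaa2, Eci1 and Etfdh, chosen by symbol from a table of 54352 genes. They were measured by 3′ digital gene expression RNA sequencing, which reads tags from the 3′ ends of transcripts, in triceps muscle, in white fat from under the skin (scWAT) and in white fat from around the organs (vWAT). All 3 tissues came from the same 20 C57BL/6JN mice, with 5 mice in each of 4 groups, which gave 60 libraries. HFD trained mice ate a high-fat diet (HFD) with 60% of energy from fat for 6 weeks and had free access to running wheels for the last 3 weeks. HFD sedentary mice ate the same diet without that running. Chow trained and chow sedentary mice differed in the same way on a standard diet with 10% of energy from fat. Every mouse was 12 weeks old at collection and was fasted for 6 hours, and the wheels were locked for 24 hours before collection, so the samples show the trained state after a pause and not during running. The design asks how diet and running each change expression in a muscle and in fat of the same animal.

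Long-chain fatty acids cross into mitochondria as carnitine esters. Carnitine palmitoyltransferase 1, of which Cpt1b is the form of muscle and brown fat, makes the ester on the outer membrane, and Cpt2 turns it back into acyl-CoA on the inner membrane. Each round of β-oxidation then starts with an acyl-CoA dehydrogenase, passes through the trifunctional protein or its short-chain counterparts, and ends with a thiolase that releases acetyl-CoA. Electrons from the first step reach the respiratory chain through the electron transfer flavoprotein and its dehydrogenase, Etfdh. Muscle burns fatty acids by this route during fasting and long exercise, and endurance training is known to raise its capacity. White fat mainly stores fatty acids, whereas brown and beige fat cells burn them for heat and hold far more of these enzymes.

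On the mm10 build with GENCODE vM21 annotation, the carnitine shuttle genes are Cpt1b (ENSMUSG00000078937, chr15:89416405-89425863, minus strand) and Cpt2 (ENSMUSG00000028607, chr4:107903981-107923610, minus). The acyl-CoA dehydrogenase genes are Acadl (ENSMUSG00000026003, chr1:66830839-66863277, minus), Acadm (ENSMUSG00000062908, chr3:153922357-153944632, minus) and Acadvl (ENSMUSG00000018574, chr11:70010183-70015411, minus). They act on long, medium and very long chains. The subunits of the trifunctional protein come from Hadha (ENSMUSG00000025745, chr5:30118304-30155162, minus) and Hadhb (ENSMUSG00000059447, chr5:30155248-30184593, plus). The remaining genes are Acaa2 (ENSMUSG00000036880), the mitochondrial thiolase, Eci1 (ENSMUSG00000024132, chr17:24426641-24439348, plus), the isomerase that prepares unsaturated chains, and Etfdh (ENSMUSG00000027809, chr3:79603788-79629500, minus). Cpt1b carries an extra uncertainty. A second protein-coding gene model, Gm44502, covers all 9459 bases of it on the same strand and holds 0 to 18 counts per library, so estimated counts may be divided between them. Acadvl shares 2119 bases with Dvl2 on the opposite strand, which held at most 12 counts in any library.

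Hadha and Hadhb stand head to head, with 85 bases between their GENCODE starts, and the 300-base promoter windows that RefSeq gives for them on GRCm38.p6 share 228 bases. Each window runs from 250 bases before a gene's start to 50 after it. Windows of 8 members were searched, all but those of Cpt1b and Acaa2. The search covered the nuclear receptor half-site AGGTCA, which receptors of the PPAR and estrogen-related families use in part or in whole, and the GC box GGGCGG, both on either strand, with matches in capitals below. The first sequence is shown because its window holds the GENCODE starts of both trifunctional protein genes, although RefSeq places the Hadha start differently, outside this window. The Acadm and Acadvl windows are the only searched ones with a half-site, and the Cpt2 window belongs to the member that passed the test in scWAT under both diet and running.
Hadhb, chr5:30155003-30155302, plus strand: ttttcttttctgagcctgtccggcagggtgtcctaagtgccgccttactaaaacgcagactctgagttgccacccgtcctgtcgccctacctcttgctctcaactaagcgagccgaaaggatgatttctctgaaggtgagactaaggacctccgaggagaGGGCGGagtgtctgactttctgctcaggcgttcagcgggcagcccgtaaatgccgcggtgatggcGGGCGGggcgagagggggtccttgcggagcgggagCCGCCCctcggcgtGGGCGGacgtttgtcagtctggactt
Acadm, chr3:153944594-153944893, minus strand: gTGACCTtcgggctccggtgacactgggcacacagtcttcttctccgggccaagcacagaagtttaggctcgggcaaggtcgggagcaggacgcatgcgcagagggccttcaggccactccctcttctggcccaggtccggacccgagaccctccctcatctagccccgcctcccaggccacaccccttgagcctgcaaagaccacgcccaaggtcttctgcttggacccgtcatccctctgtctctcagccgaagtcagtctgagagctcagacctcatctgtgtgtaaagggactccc
Acadvl, chr11:70015379-70015678, minus strand: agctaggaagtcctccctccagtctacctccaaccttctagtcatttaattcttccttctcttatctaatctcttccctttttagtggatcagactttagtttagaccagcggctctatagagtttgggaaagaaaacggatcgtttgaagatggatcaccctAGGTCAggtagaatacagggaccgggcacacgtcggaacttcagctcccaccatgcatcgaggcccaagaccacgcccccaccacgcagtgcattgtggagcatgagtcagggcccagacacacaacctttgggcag
Cpt2, chr4:107923540-107923839, minus strand: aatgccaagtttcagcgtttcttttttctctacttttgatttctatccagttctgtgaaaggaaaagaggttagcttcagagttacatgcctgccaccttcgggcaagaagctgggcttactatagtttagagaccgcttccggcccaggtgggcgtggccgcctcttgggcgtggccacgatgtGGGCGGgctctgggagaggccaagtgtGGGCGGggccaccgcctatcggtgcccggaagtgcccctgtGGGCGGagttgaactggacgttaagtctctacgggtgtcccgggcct
The half-site was found in 2 of the 8 windows, against 16.3% of all 32851 promoter windows of this length. It read TGACCT from 249 to 244 bases before the Acadm start and AGGTCA from 87 to 82 bases before the Acadvl start. The GC box was found in 6 of the 8 windows, those of Cpt2, Acadl, Hadha, Hadhb, Eci1 and Etfdh, against 35.7% of all windows. The only Hadha match, 188 to 183 bases before the RefSeq Hadha start, lies in the shared bases. It is the same site as the Hadhb match 90 to 85 bases before the Hadhb start, so these windows are not independent. A half-site preceded by TNA, which 1.28% of all windows hold, was found in none of the 8. The tandem AGGTCANAGGTCA and its looser form, AGGNCA repeated after any 1 base, held by 0.0396% and 0.381% of all windows, were also found in none, and CCAAT was found in the Etfdh window alone, against 37.4% of all windows. These are matches of letters in short windows and no measure of binding.

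Library totals lay between 505336 and 744581 estimated counts, with a median of 666522.5. CPM are counts scaled to a total of 1000000. Where a library listed a gene at 0, a level of up to 3 counts (4.03 to 5.94 CPM) cannot be told from 0. That limit covers counting error only. Levels below are CPM on total counts. Fat and muscle could be told apart by their defining genes. The 7 adipocyte markers summed to 26308 CPM or more in every fat library and to at most 917 CPM in triceps, while the 15 skeletal muscle markers held 60759 counts or more in every triceps library. The fat libraries were not free of muscle, and chow trained replicate 3 of scWAT held 60591 muscle marker counts. Some libraries stood apart. Muscle markers reached over 10000 counts in 4 scWAT libraries, of HFD sedentary replicate 4, chow trained replicates 3 and 4 and chow sedentary replicate 1. Lymph node stroma genes passed 100 counts in 6 scWAT libraries, all from chow mice. In vWAT they did so only in HFD sedentary replicates 1 and 4 (181 and 118 counts) and HFD trained replicates 2 and 3 (248 and 212 counts). Heart genes passed 100 counts in 5 vWAT libraries, all from chow mice. In 3 vWAT libraries from HFD mice, muscle markers passed 1000 counts. The heart reads and these muscle reads each followed sets of 12 consecutive library codes in the column headers. Liver markers reached 4263, 1174 and 695 counts in vWAT of HFD sedentary replicates 3, 4 and 5. They reached 2040 and 939 counts in HFD trained replicates 4 and 5, against at most 528 in chow vWAT. The same HFD sedentary vWAT libraries held 654, 259 and 419 counts of intestine markers, and the same HFD trained ones held 597 and 513. Chow vWAT libraries held at most 102 of these counts. Intestine markers held 209 to 255 counts in triceps of chow sedentary replicates 1 to 3 and chow trained replicates 1 and 2. All other triceps libraries held 0 to 9 of these counts. The diet changes in sedentary mice are given with and without the scWAT libraries high in muscle or lymph node reads. The same is given for the vWAT libraries with heart or muscle reads. No fit left out all the vWAT libraries high in lymph node stroma, liver or intestine genes. The triceps libraries with intestine reads lay outside the largest set of library codes, which was also fitted alone. The differences between tissues were not computed without any of these kinds of library.

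In every tissue the 10 enzymes were measurable except Cpt1b in vWAT. Mean Cpt1b was 83.7 CPM over the 20 triceps libraries, against 22.3 in scWAT and 1.05 in vWAT, where single libraries held 0 to 8.50 CPM, at most 5 counts each, and the gene was too low to test. The lowest triceps library (45.4 CPM) lay above the highest vWAT library, but scWAT reached 71.8 CPM and overlapped triceps. The other 9 had their highest mean in scWAT. Their triceps mean was 0.27 to 0.78 times the scWAT mean, lowest for Cpt2 (29.0 CPM in triceps, against 108.5 in scWAT), and their scWAT mean was 1.33 to 2.06 times the vWAT mean. For Cpt2 every triceps library (at most 54.0 CPM) lay below every scWAT library (at least 55.0 CPM), and for the other 8 single libraries of every pair of tissues overlapped. Mitochondrially encoded transcripts took 23.9 to 43.2% of triceps counts, against 8.33 to 22.9% in scWAT and 6.14 to 20.2% in vWAT, and such shares lower the CPM of every other gene, so levels between tissues are given with no test.

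Running on the high-fat diet raised nearly all of these enzymes in triceps. In HFD trained against HFD sedentary triceps, 9 of the 10 rose, with log2 fold changes of 0.79 to 1.27 and a median over all 10 of 0.88, against −0.01 over all 4410 genes tested. Of all genes tested there, 3.49% were called higher at an adjusted p below 0.05. Calls and adjusted p values here and below are from edgeR's quasi-likelihood test with Benjamini-Hochberg adjustment over all genes of a tissue, and log2 fold changes are on edgeR's TMM scale with their standard error (SE).

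Hadhb, the thiolase-bearing subunit of the trifunctional protein, had 479, 632, 591, 413 and 483 CPM in HFD trained triceps, against 231, 337, 245, 333 and 331 in HFD sedentary triceps. The groups did not overlap, as for 1.09% of all genes tested in that direction, and the change was 1.00 ± 0.16 (adjusted p = 0.000246), the lowest p of the 10. Hadha, which carries the hydratase and dehydrogenase steps, had 188, 220, 194, 146 and 188 CPM in HFD trained, against 105, 73.9, 114, 168 and 146 in HFD sedentary triceps. It rose by 0.81 ± 0.17 (adjusted p = 0.00353), though the highest sedentary library lay above the lowest trained one.

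Acaa2 showed the largest change among the 10. It had 422, 541, 563, 396 and 396 CPM in HFD trained, against 156, 179, 195, 276 and 288 in HFD sedentary triceps, with no overlap and a change of 1.27 ± 0.24 (adjusted p = 0.00384). Among the acyl-CoA dehydrogenases, Acadl had 244, 336, 255, 267 and 250 CPM in HFD trained, against 174, 125, 175, 238 and 175 in HFD sedentary triceps. Acadm had 564, 733, 746, 584 and 645 CPM in HFD trained, against 284, 340, 424, 532 and 535 in HFD sedentary triceps. Neither gene's groups overlapped, with changes of 0.79 ± 0.17 for Acadl (adjusted p = 0.00444) and 0.81 ± 0.19 for Acadm (adjusted p = 0.0135). Without HFD trained replicate 2 or without replicate 3, Acadm was no longer called, with changes between 0.68 and 0.92 over all fits that left out 1 library. Acadvl averaged 356 ± 75.6 CPM in HFD trained and 207 ± 44.8 CPM in HFD sedentary triceps (SD, n = 5 each). It rose by 0.97 ± 0.19 (adjusted p = 0.00307), with 1 trained library, at 247 CPM, inside the sedentary range.

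The isomerase and the electron acceptor rose as well. Eci1 averaged 119 ± 26.0 CPM in HFD trained and 70.6 ± 19.8 CPM in HFD sedentary triceps and rose by 0.93 ± 0.19 (adjusted p = 0.00196). Etfdh averaged 151 ± 29.0 CPM in HFD trained and 92.6 ± 24.6 CPM in HFD sedentary triceps and rose by 0.89 ± 0.17 (adjusted p = 0.00124). The carnitine shuttle rested on fewer counts. Cpt2 had 40.7, 54.0, 44.4, 23.2 and 36.3 CPM in HFD trained, against 24.3, 9.95, 33.2, 27.6 and 27.0 in HFD sedentary triceps, from 7 to 39 counts per library. Its change of 0.88 ± 0.26 was called (adjusted p = 0.0289), but not with total counts in place of TMM (adjusted p = 0.0748), nor without HFD sedentary replicates 1 or 2 or HFD trained replicates 1, 2 or 3. Cpt1b averaged 88.2 ± 25.3 CPM in HFD trained and 72.7 ± 19.6 CPM in HFD sedentary triceps. It was the member not called, with a change of 0.47 ± 0.20 (adjusted p = 0.175), and it was called at 0.65 (adjusted p = 0.0292) in the largest set of library codes alone and at 0.62 (adjusted p = 0.0141) with the code set as a factor.

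**Figure D1:**
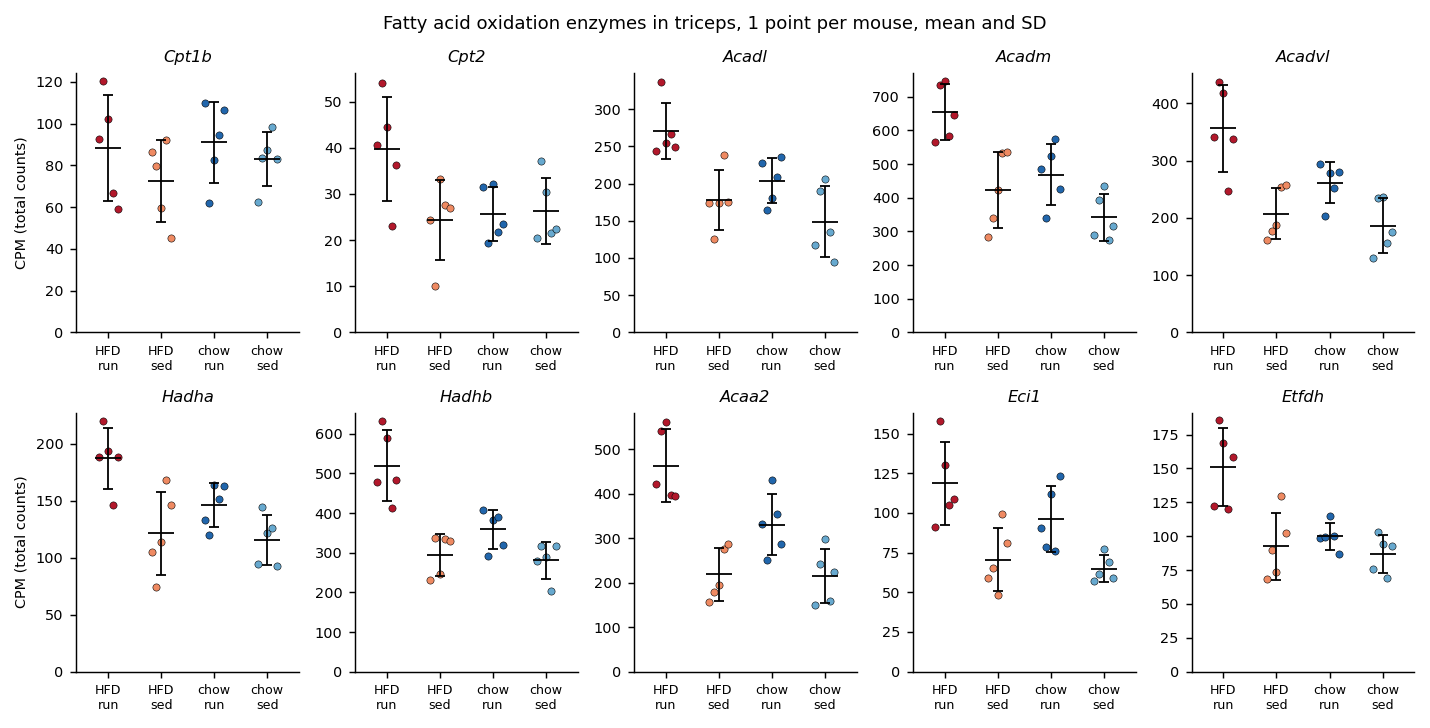
Level of each enzyme in triceps in CPM on total counts, with 1 point per mouse and the mean and SD of 5 mice, for HFD trained, HFD sedentary, chow trained and chow sedentary groups. In Hadhb, Acaa2, Acadl and Acadm every HFD trained point lies above every HFD sedentary point, and the means of Hadhb are 520 and 295 CPM.

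Other lists of oxidation genes were called in part in HFD trained triceps. Of 16 other mitochondrial oxidation genes, 9 could be tested and 6 rose, led by Decr1, the reductase for unsaturated chains (0.96, adjusted p = 0.000919), Hadh, the short-chain dehydrogenase (0.80, adjusted p = 0.00196), and Slc25a20, the carnitine carrier between Cpt1 and Cpt2 (1.00, adjusted p = 0.00197). Their median change was 0.73. Of 8 tested genes for fatty acid activation and supply, 2 rose, Acsl1, which makes acyl-CoA (0.61, adjusted p = 0.0187), and Dbi, which binds it (0.48, adjusted p = 0.0264). Among 24 nuclear genes of the respiratory chain 18 rose, with a median of 0.49, and among 18 genes of the tricarboxylic acid cycle 8 rose, with a median of 0.39. The list for the peroxisomal pathway, which shortens very long chains, had 1 of 9 called, Ech1 (0.96, adjusted p = 0.0326). Its place on that list does not show that the change concerns peroxisomes. Pdk4, a brake on glucose oxidation that fasting induces, fell by 1.32 on the log2 scale (adjusted p = 0.000975), and Ucp3, an uncoupling protein of muscle mitochondria, fell by 1.04 (adjusted p = 0.00557). Acot13, on the same list as both, rose by 0.53 (adjusted p = 0.0155). Of branched-chain amino acid breakdown, Hibch (1.08, adjusted p = 0.00810), Acat1 (0.60, adjusted p = 0.0138) and Hibadh (0.54, adjusted p = 0.0447) rose. Of 6 tested regulators none was called. Ppargc1a, the coactivator often linked to training, changed by 0.37 ± 0.20 (adjusted p = 0.313).

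Other measures moved alongside. Mitochondrially encoded transcripts took 35.8 to 43.2% of counts in HFD trained triceps, against 23.9 to 33.6% in HFD sedentary triceps. The 15 muscle markers summed to 60759 to 88726 counts in HFD trained, against 87418 to 119728 in HFD sedentary triceps. That sum mostly reflects its most abundant genes. Over all triceps libraries, median counts were 16704 for Tnnc2 and 14843.5 for Mylpf, against 1057.5 for Mb and 361 for Myh2. The part of the mitochondrial share or of the marker sum in the result was not tested. In bulk tissue, fewer cells of a type and less RNA per cell cannot be told apart. With total counts in place of TMM, which moved all changes in this comparison by 0.18, 8 of the 10 were still called.

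On chow, none of the 10 was called with running in triceps. On the TMM scale all 10 log2 fold changes between chow trained and chow sedentary mice were positive, with a median of 0.53, but on total counts Cpt2 was at −0.05 and the median was 0.40. Of the members 0 of 10 were called, while 0.431% of all genes tested were called higher. Acaa2 had 332, 250, 432, 354 and 288 CPM in chow trained, against 150, 242, 297, 160 and 223 in chow sedentary triceps (0.77 ± 0.24, adjusted p = 0.152). Eci1 came nearest to a call, with 90.5, 78.4, 112, 75.8 and 123 CPM in chow trained, against 56.9, 61.8, 77.5, 69.1 and 59.0 in chow sedentary triceps (0.69 ± 0.19, adjusted p = 0.0739). The groups overlapped for every member, while 0.703% of all genes had trained above sedentary with no overlap. At an unadjusted p below 0.05, 477 of all 4410 genes passed. DESeq2 on the same counts called 5 of the 10, Acaa2, Acadl, Acadm, Acadvl and Eci1, so the absence of calls depends on the tool. In the largest set of library codes alone Acadl and Acadvl were called, and without chow sedentary replicate 3 Acadl and Eci1 were called. Pdk4 (−0.96, adjusted p = 0.0336) and Ucp3 (−0.91, adjusted p = 0.0291) fell with running on chow too. Suclg2 of the tricarboxylic acid cycle list rose (0.87, adjusted p = 0.0194). Of the respiratory chain list, Cox4i1 (0.49, adjusted p = 0.0336), Ndufb8 (0.45, adjusted p = 0.0396) and Cyc1 (0.56, adjusted p = 0.0437) rose.

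Whether running acted differently on each diet was tested directly. The diet by running interaction in triceps was positive for all 10 members, with a median of 0.34, and called 0 of them and 0% of all genes tested (225 at an unadjusted p below 0.05), also 0 with DESeq2. Etfdh had the largest interaction after Cpt2, at 0.55 ± 0.25 (adjusted p = 0.959), and Cpt2 was at 0.80 ± 0.37 (adjusted p = 0.959). Both effects of running share no mice, but the interaction and the effects are built from the same 20 libraries.

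Diet alone left no called change in triceps. Between HFD sedentary and chow sedentary triceps, 0% of all genes were called by edgeR or DESeq2 (201 at an unadjusted p below 0.05), and the member changes ran from −0.25 to 0.25 with a median of 0.02. Hadhb averaged 295 ± 52.8 CPM in HFD sedentary and 281 ± 46.3 CPM in chow sedentary triceps, and Acaa2 averaged 219 ± 59.4 CPM in HFD sedentary and 214 ± 60.9 CPM in chow sedentary triceps. Between HFD trained and chow trained triceps the median member change was 0.46 and 0 members were called, again with 0% of all genes called (306 at an unadjusted p below 0.05, and 0 called by DESeq2). Etfdh had 122, 185, 169, 120 and 158 CPM in HFD trained, against 98.7, 99.1, 115, 100.1 and 87.1 in chow trained triceps. Its groups did not overlap, nor did those of Acadl and Hadhb, as for 0.771% of all genes in that direction, but its change of 0.59 ± 0.17 was not called (adjusted p = 0.597).

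**Figure D2:**
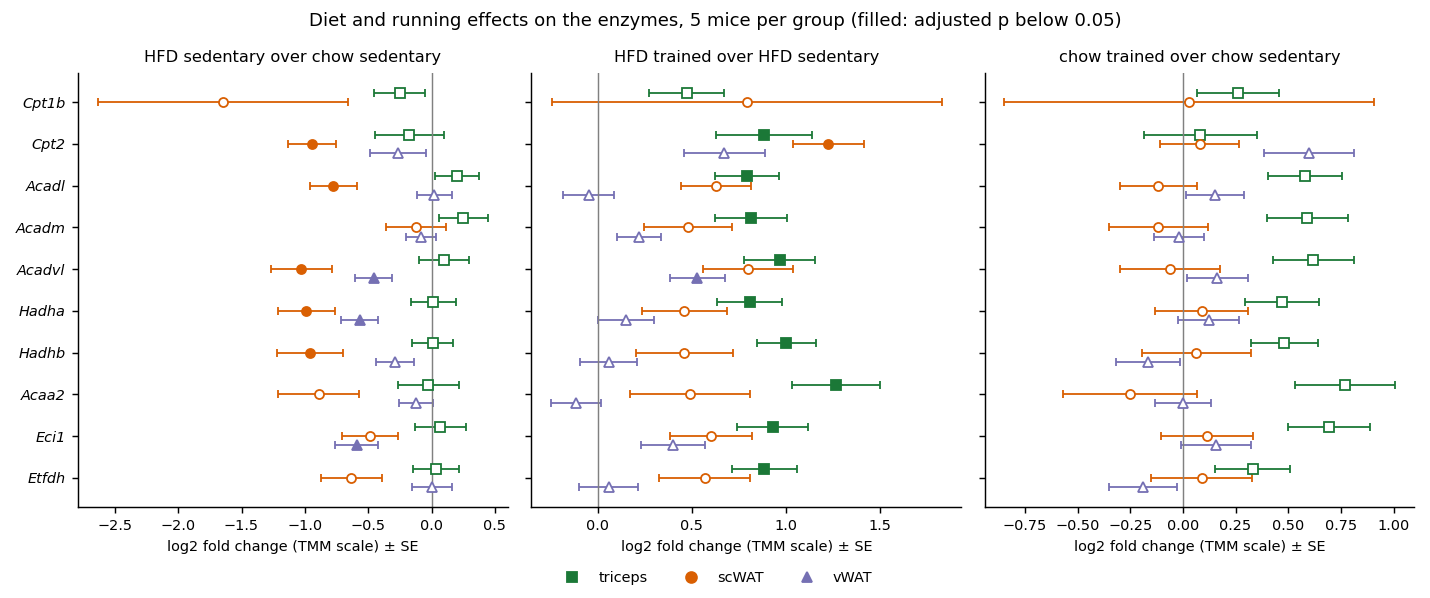
Log2 fold change of each enzyme on the TMM scale with its SE, for HFD sedentary over chow sedentary, HFD trained over HFD sedentary and chow trained over chow sedentary mice, in triceps, scWAT and vWAT, with filled symbols for calls at an adjusted p below 0.05. Triceps symbols lie near 0 for diet and between 0.47 and 1.27 for running on HFD, while all 10 scWAT symbols lie below 0 for diet, of which Acadm lies at 0.09 on total counts.

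In subcutaneous fat the high-fat diet lowered 5 of these enzymes. Between HFD sedentary and chow sedentary scWAT all 10 log2 fold changes were negative on the TMM scale, with a median of −0.92 against −0.05 over all 7069 genes tested, but on total counts Acadm was at 0.09 and the median was −0.72. Of all genes tested, 2.8% were called lower. The members that fell were Cpt2, Acadl, Acadvl and both subunits of the trifunctional protein.

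Cpt2 had 74.7, 60.8, 63.3, 55.0 and 74.9 CPM in HFD sedentary, against 94.2, 101, 115, 115 and 127 in chow sedentary scWAT. The groups did not overlap and the change was −0.94 ± 0.19 (adjusted p = 0.00337). Acadvl had 264, 205, 257, 173 and 179 CPM in HFD sedentary, against 289, 295, 421, 494 and 416 in chow sedentary scWAT. Every HFD library lay below every chow library, and the change was −1.03 ± 0.24 (adjusted p = 0.0100). Hadha had 141, 112, 169, 144 and 145 CPM in HFD sedentary, against 170, 170, 283, 341 and 263 in chow sedentary scWAT. The groups just failed to overlap, and the change was −0.99 ± 0.23 (adjusted p = 0.00841). Over all genes, 1.22% had groups that did not overlap with HFD lower. Its partner Hadhb averaged 480 ± 118 CPM in HFD sedentary and 806 ± 182 CPM in chow sedentary scWAT, with overlap, and fell by 0.96 ± 0.26 (adjusted p = 0.0273). That call was lost on leaving out any one of 6 libraries, those of HFD sedentary replicates 2, 3, 4 or 5 or chow sedentary replicates 3 or 4. Acadl averaged 218 ± 47.1 CPM in HFD sedentary and 326 ± 53.9 CPM in chow sedentary scWAT and fell by 0.78 ± 0.19 (adjusted p = 0.0117).

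Of the others, Acaa2 (−0.89 ± 0.32, adjusted p = 0.105), Etfdh (−0.63 ± 0.24, adjusted p = 0.123) and Eci1 (−0.49 ± 0.22, adjusted p = 0.197) were not called. Acadm had 1320.0, 946, 944, 534 and 881 CPM in HFD sedentary, against 772, 746, 925, 1030.4 and 883 in chow sedentary scWAT. The groups lay across each other and the change was −0.12 ± 0.23 (adjusted p = 0.812). Cpt1b held only 0 to 22 counts per HFD sedentary library and 15 to 28 per chow sedentary library, and its change of −1.65 ± 0.99 was not called (adjusted p = 0.371).

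A summed level of brown and beige fat cell markers moved with this result. The 7 markers (Ucp1, Cidea, Elovl3, Cox7a1, Cox8b, Ppargc1a and Dio2) summed to 252, 508 and 1190.3 CPM (lowest, median and highest) in HFD sedentary, against 1289.6, 1906 and 3982 CPM in chow sedentary scWAT, with no overlap. Ucp1, the uncoupling protein that defines these cells, had 1 to 527 counts over the 20 scWAT libraries and was detected in all of them. Dio2 was at 0 in 17 libraries and Elovl3 in 6, and Cox7a1, Cox8b and Ppargc1a are expressed in muscle as well. The sum mostly reflects its most abundant genes. Over all scWAT libraries, median counts were 503.5 for Cox8b, 208.5 for Cidea and 145 for Cox7a1, against 19 for Ucp1. Ppargc1a did not fall in this comparison (0.11 ± 0.61, adjusted p = 0.942). With the log2 of that sum as a covariate, an alternative chosen after seeing the data, none of the 10 was called. Cpt2 was then at −0.55 (adjusted p = 0.460), Acadvl at −0.25 and Hadha at −0.26, and the median of the 10 was −0.14. The marker sum and the diet groups do not overlap, so the parts of each in the fall cannot be told apart. Mitochondrially encoded transcripts were also lower, at 8.33 to 14.6% of counts in HFD sedentary, against 15.5 to 21.5% in chow sedentary scWAT.

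The libraries with reads of other tissues were left out in turn. With the 4 libraries of high muscle content left out the same number of members, 5, was called, and in the 11 libraries of the largest set of library codes 6 were called, Acaa2 among them (−1.33, adjusted p = 0.0206). Without the 6 libraries with lymph node reads, which left 2 chow sedentary mice, 2 members were called, Cpt2 (−0.95, adjusted p = 0.0486) and Hadha (−0.96, adjusted p = 0.0468). On total counts, which shift the whole comparison by 0.19 on the log2 scale, Cpt2, Acadl, Acadvl and Hadha were called.

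Other lists of mitochondrial genes changed in part in HFD sedentary scWAT. Of 13 tested genes of the list of other mitochondrial oxidation enzymes none was called, with a median of −0.35. The respiratory chain list had 9 of 24 lower (median −0.56), led by Ndufa1, Uqcr10 and Cox6c, and the tricarboxylic acid cycle list had 4 of 18 lower. Acacb, which makes the malonyl-CoA that inhibits Cpt1, fell by 2.39 on the log2 scale (adjusted p = 1.33e-05), and it fell in vWAT too, by 1.95 (adjusted p = 0.000986). Ehhadh of the peroxisomal pathway fell by 1.23 in scWAT (adjusted p = 0.00786), while Abcd2, a peroxisomal importer, rose by 0.64 (adjusted p = 0.0372).

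**Figure D3:**
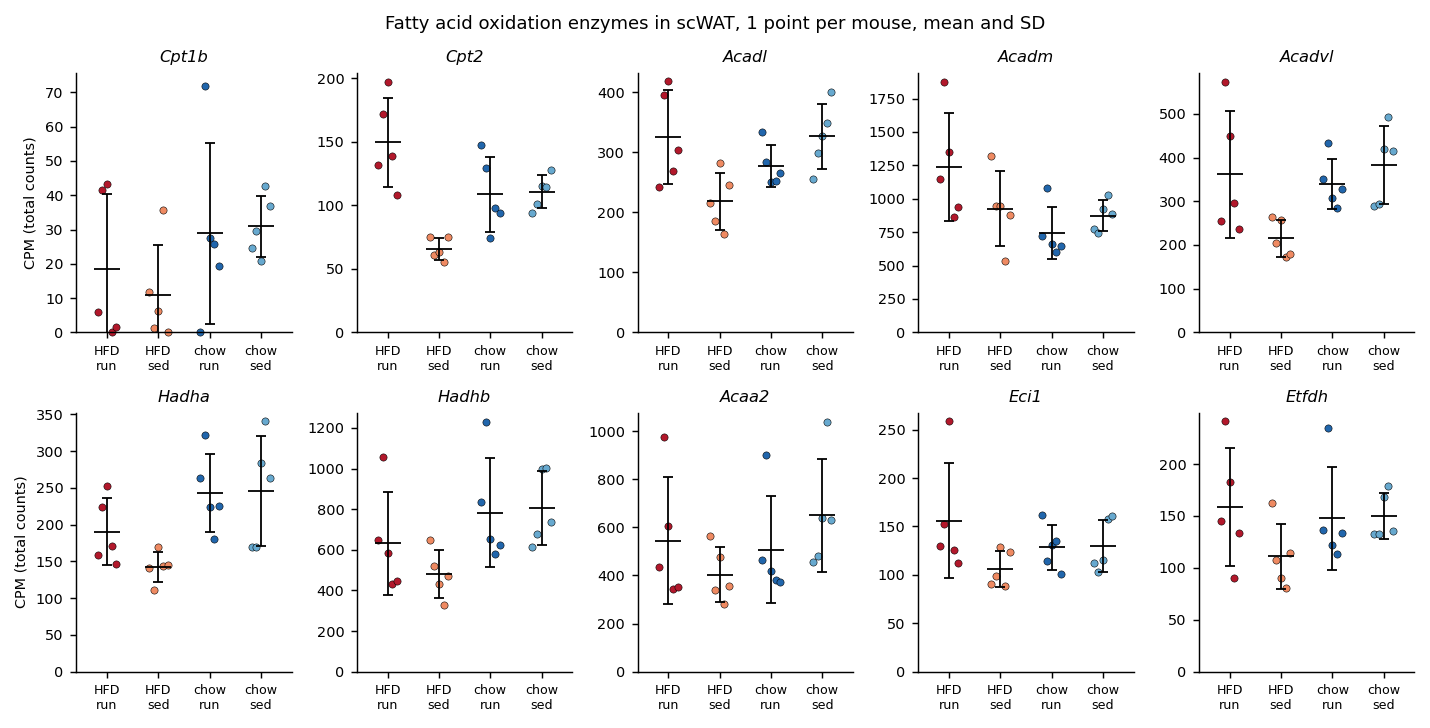
Level of each enzyme in scWAT in CPM on total counts, with 1 point per mouse and the mean and SD of 5 mice, for HFD trained, HFD sedentary, chow trained and chow sedentary groups. For Cpt2, HFD trained points lie between 108 and 197 CPM and HFD sedentary points between 55.0 and 74.9 CPM, while Acadm shows no such gap.

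Running raised 1 of the 10 in HFD scWAT, Cpt2. It had 132, 171, 197, 139 and 108 CPM in HFD trained, against 74.7, 60.8, 63.3, 55.0 and 74.9 in HFD sedentary scWAT. The groups did not overlap, as for 1.6% of all genes in that direction, and the change was 1.23 ± 0.19 (adjusted p = 0.00192). Of all genes tested, 0.707% were called higher. Its level in HFD trained scWAT (149 ± 34.8 CPM) compares with 108 ± 29.3 CPM in chow trained and 110 ± 13.0 CPM in chow sedentary scWAT. The call held in all 20 fits that left out 1 library, with changes of 1.11 to 1.34, and also without the 4 high-muscle libraries (1.21, adjusted p = 0.00690), with the brown and beige covariate (1.00, adjusted p = 0.0156) and in the largest set of library codes alone (1.18, adjusted p = 0.0321). The other 9 had positive changes of 0.46 to 0.80, such as Acadvl at 0.80 ± 0.24 (adjusted p = 0.138) and Acadl at 0.63 ± 0.19 (adjusted p = 0.125), and the median of the 10 was 0.59. DESeq2 called Acadl as well (adjusted p = 0.0410). Acsl1 rose alongside (0.95, adjusted p = 0.0350). No gene of the other mitochondrial oxidation, tricarboxylic acid cycle or respiratory chain lists was called in this comparison.

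Within HFD trained scWAT the mice were uneven. Replicates 2 and 3 held 1621 and 1624 counts of the brown and beige markers, against 322 to 453 in the other HFD trained libraries, and the 10 enzymes summed to 5707 and 4342 CPM in them, against 2734 to 3302 CPM in the others. The chow trained replicate 2 and the chow sedentary replicate 4 had the highest marker sums of their groups, and also the highest enzyme sums, 4801 and 4750 CPM. In HFD sedentary scWAT replicate 4, with 40131 muscle marker counts, had the highest marker sum of its group and the lowest enzyme sum, 1882 CPM. The 2 measures share libraries and total counts, and their order is given as a description.

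Cpt1b in scWAT was highest in libraries high in brown and beige markers and low in muscle markers. Its 4 highest counts were 44 in chow trained replicate 2, 29 and 27 in HFD trained replicates 2 and 3, and 28 in chow sedentary replicate 4, where muscle markers held 149, 62, 383 and 811 counts. Per 1000 muscle marker counts, Cpt1b held 0.33 to 1.43 counts in triceps (median 0.59) and 0 to 468 in scWAT (median 1.86), with the highest from a library of only 62 muscle marker counts. In the 4 scWAT libraries with over 10000 muscle marker counts it held 15 to 22 counts, with the 22 in HFD sedentary replicate 4, the highest of that group.

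**Figure D4:**
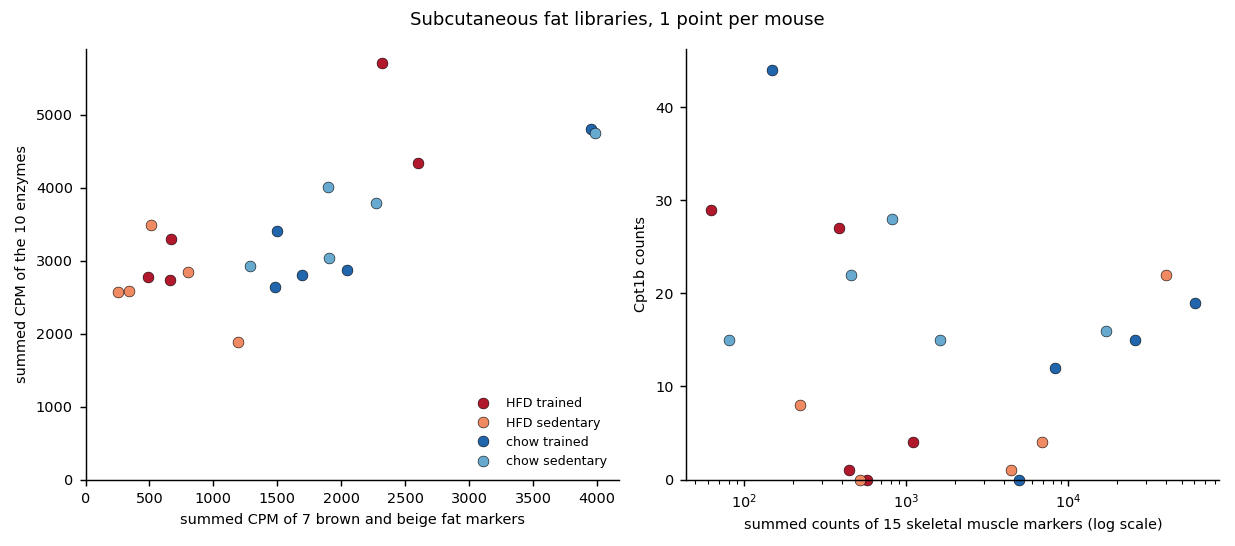
Left, summed CPM of the 10 enzymes against summed CPM of 7 brown and beige fat markers, and right, Cpt1b counts against summed counts of 15 skeletal muscle markers on a log axis, in 20 scWAT libraries coloured by group. The 2 HFD trained mice with marker sums of 2317 and 2597 CPM have enzyme sums of 5707 and 4342 CPM, and the highest Cpt1b count, 44, comes from a library with 149 muscle marker counts.

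On chow, none of the 10 was called with running in scWAT. The changes ran from −0.25 to 0.11 with a median of 0.05 (−0.07 on total counts), edgeR called 0% of all genes tested (377 at an unadjusted p below 0.05) and DESeq2 called 3 genes, none of them a member. Hadha averaged 243 ± 53.1 CPM in chow trained and 245 ± 74.5 CPM in chow sedentary scWAT. The interaction of diet and running was positive for all 10, with a median of 0.67 and a change of 1.15 ± 0.26 for Cpt2 (adjusted p = 0.329), and 0 members were called, with 0% of all genes called (438 at an unadjusted p below 0.05). DESeq2 called 1 member for the interaction. Between HFD trained and chow trained scWAT, 0 of 10 members were called against 5.16% of all genes, with a median of −0.15 (0.10 on total counts), and Hadha was nearest (−0.62 ± 0.22, adjusted p = 0.0963). This comparison and the one in sedentary mice share no libraries. On total counts Acadm was called higher (0.73, adjusted p = 0.0394), and with a muscle covariate Hadhb was called lower (−0.94, adjusted p = 0.0287).

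In visceral fat the calls for diet rested on the scale and on a few libraries, and no member's diet change differed between scWAT and vWAT by the direct test given further on. Between HFD sedentary and chow sedentary vWAT 3 of the 9 tested members fell, Acadvl, Hadha and Eci1, with a median change over the 9 of −0.27. Of all 6990 genes tested, 4.15% were called lower. Hadha had 106, 127, 108, 88.5 and 133 CPM in HFD sedentary, against 141, 168, 168, 125 and 123 in chow sedentary vWAT, and its change was −0.57 ± 0.15 (adjusted p = 0.0120). Eci1 had 80.7, 66.1, 82.8, 81.3 and 79.2 CPM in HFD sedentary, against 84.5, 142, 114, 105 and 68.6 in chow sedentary vWAT, with a change of −0.59 ± 0.17 (adjusted p = 0.0230). Acadvl averaged 130 ± 19.2 CPM in HFD sedentary and 156 ± 20.2 CPM in chow sedentary vWAT (−0.46 ± 0.15, adjusted p = 0.0447). The groups overlapped for all 9, while 1.2% of all genes had HFD below chow with no overlap. Cpt1a, another gene for carnitine palmitoyltransferase 1 and no member here, had a positive change that was not called (0.53 ± 0.19, adjusted p = 0.0915). Its diet change was 0.69 ± 0.20 in trained vWAT (adjusted p = 0.0564) and 0.11 ± 0.23 in sedentary scWAT (adjusted p = 0.834). Acadl had a narrow range in HFD sedentary vWAT, 197 to 209 CPM, against 131 to 226 CPM in chow sedentary vWAT. Its change was 0.02 ± 0.14, and Etfdh was at 0.00 ± 0.16.

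On total counts none of the 9 was called in that comparison, with Hadha at −0.36, Eci1 at −0.39 and Acadvl at −0.26, because the TMM scale moves the whole comparison by −0.20. The summed level of the 10 was 1768 to 2111 CPM in HFD sedentary and 1712 to 2256 CPM in chow sedentary vWAT. Heart genes, including Myh6 and Nppa, held 442 to 608 counts in 5 chow libraries, 3 sedentary and 2 trained, and at most 30 in the other 15 vWAT libraries. Without those 5 libraries none of the 9 was called, with a median of 0.01 and 2 chow sedentary mice left, and none was called in the largest set of library codes alone, with a median of −0.09. Without the 3 libraries with muscle reads Hadha alone was called. Leaving out 1 library at a time, the number called ran from 1 to 3. Hadha was lost without HFD sedentary replicate 4, and Eci1 without HFD sedentary replicates 2 or 5 or chow sedentary replicates 2 or 3. Acadvl was lost in 13 of 20 such fits, those without HFD trained replicates 1, 3, 4 or 5, HFD sedentary replicates 1, 2, 4 or 5, chow trained replicate 2 or chow sedentary replicates 1 to 4. In the same comparison other mitochondrial lists were also lower, with 19 of 24 respiratory chain genes, 8 of 18 tricarboxylic acid cycle genes, 8 of 18 tested genes of branched-chain amino acid breakdown and 4 of 13 other mitochondrial oxidation genes called, led by Echs1 (−0.72, adjusted p = 0.000361). The 8 macrophage markers, of which all but Itgax (in 16 of 20) were detected in every vWAT library, summed to 1176 to 5388 CPM in HFD sedentary, against 609 to 855 CPM in chow sedentary vWAT. Mitochondrially encoded transcripts took 6.14 to 9.64% of counts in HFD sedentary, against 12.9 to 18.9% in chow sedentary vWAT. The part of either in the result was not tested.

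Running on HFD raised Acadvl in vWAT. It had 205, 156, 194, 179 and 172 CPM in HFD trained, against 142, 134, 145, 135 and 97.2 in HFD sedentary vWAT, with no overlap and a change of 0.53 ± 0.14 (adjusted p = 0.0347). Of all genes tested, 1.22% were called higher. The call was lost on total counts, with no filter, in the largest set of library codes alone, without the 3 libraries with muscle reads and without any one of HFD trained replicates 1, 3 or 4 or HFD sedentary replicates 1, 4 or 5. Cpt2 had 94.1, 77.0, 82.3, 85.1 and 71.4 CPM in HFD trained, against 59.8, 62.9, 48.2, 45.0 and 52.3 in HFD sedentary vWAT. The groups did not overlap, as for 1.62% of all genes in that direction, and the change of 0.67 ± 0.21 missed a call (adjusted p = 0.0812). Without chow sedentary replicate 5 it was called, and so it was with the replicate block (adjusted p = 0.0472), with no filter and with the code set as a factor (adjusted p = 0.0205). Macrophage markers summed to 613 to 1443 CPM in HFD trained vWAT, against 1176 to 5388 CPM in HFD sedentary vWAT, and mitochondrially encoded transcripts took 10.6 to 11.9% of counts in HFD trained, against 6.14 to 9.64% in HFD sedentary vWAT. Their part in the result was not tested. Echs1, the short-chain hydratase, rose (0.71, adjusted p = 0.00128), as did Pparg, the nuclear receptor of fat cell differentiation (0.57, adjusted p = 0.0101), and Pdk4 fell by 1.19 (adjusted p = 0.0269). Acaa2 and Acadl, which rose in triceps of the same mice, changed by −0.12 ± 0.13 and −0.05 ± 0.13 in vWAT. On chow, running called 0 of the 9 members, against 0.587% of all genes, and Cpt2 again had the largest change (0.60 ± 0.21, adjusted p = 0.302). DESeq2 also called 0 members there. Between HFD trained and chow trained vWAT, Hadha fell by 0.54 ± 0.15 (adjusted p = 0.0375), with 1.42% of all genes called lower, and averaged 120 ± 13.4 CPM in HFD trained and 154 ± 22.9 CPM in chow trained vWAT. Acadm and Etfdh lay higher in every HFD trained library than in every chow trained one, as did 5.09% of all genes, with changes of 0.16 ± 0.12 and 0.25 ± 0.16 that were not called. The Hadha call was lost on total counts, with no filter, with the replicate block, with the code set as a factor, in the largest code set alone, without the libraries with heart reads and without any one of HFD trained replicates 1 to 4 or chow trained replicates 1, 2 or 4. The interaction called 0 members and 0.0143% of all genes, also 0 members with DESeq2.

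**Figure D5:**
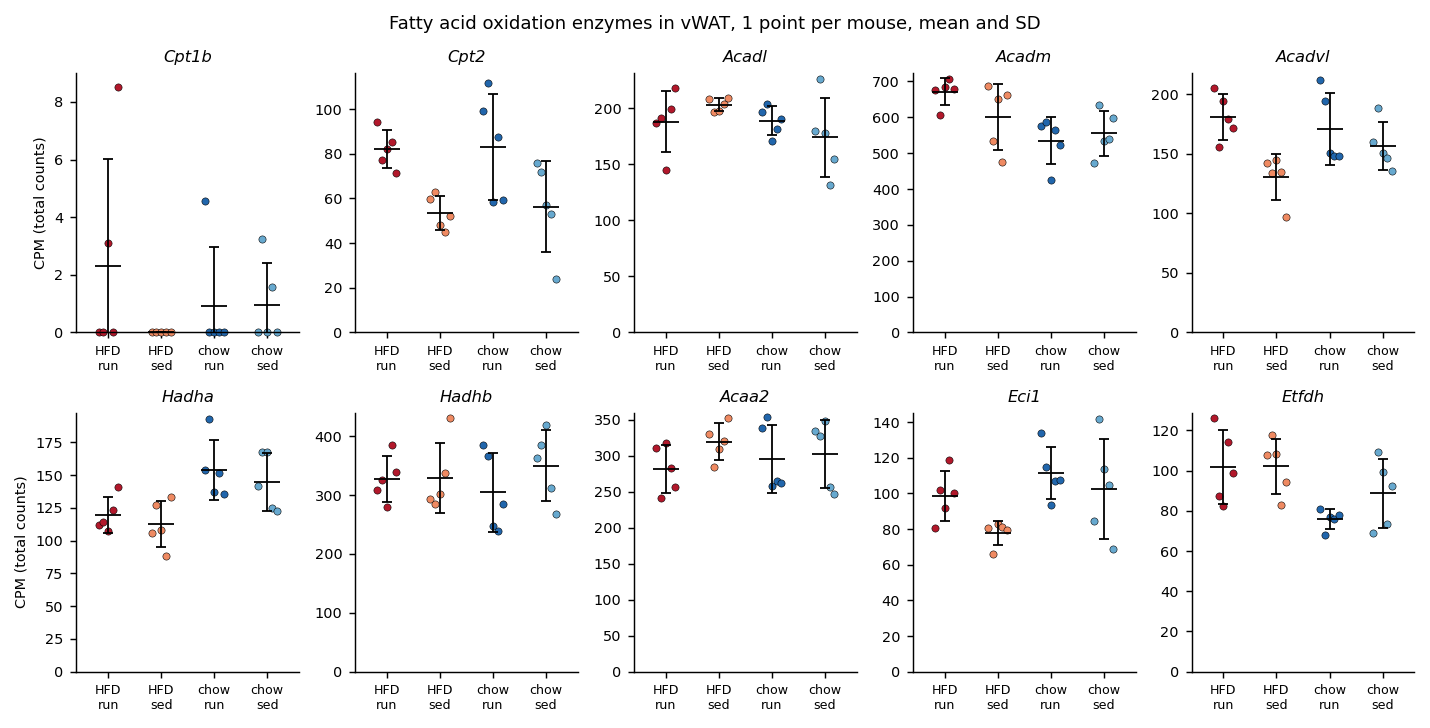
Level of each enzyme in vWAT in CPM on total counts, with 1 point per mouse and the mean and SD of 5 mice, for HFD trained, HFD sedentary, chow trained and chow sedentary groups. Acadvl and Cpt2 have HFD trained points above all HFD sedentary points, and Cpt1b lies at or near 0, with a highest value of 8.50 CPM.

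Differences between tissues were tested in joint fits with the mouse as a block, since each mouse gave all 3 tissues. The diet change in sedentary mice was lower in scWAT than in triceps for 2 of 10 members, Acadl (difference −0.99 ± 0.26, adjusted p = 0.0298) and Acadvl (−1.10 ± 0.29, adjusted p = 0.0330), against 2.68% of all genes called in either direction. All 10 differences were negative, with Hadha at −0.91 ± 0.27 (adjusted p = 0.0734). On total counts none of the 10 was called. The number called fell to 0 without HFD trained replicate 2, HFD sedentary replicates 2, 4 or 5 or chow sedentary replicates 4 or 5, and to 1 without chow sedentary replicates 1 or 3. Between scWAT and vWAT none of the 9 differed in the diet change, with 1.43% of all genes called and Acadl nearest (−0.82 ± 0.24, adjusted p = 0.0913), and between vWAT and triceps none of the 9 did, with 2.43% of all genes called. The change with running on HFD was higher in triceps than in vWAT for 3 of 9 members, Acaa2 (difference 1.40 ± 0.23, adjusted p = 0.000725), Acadl (0.86 ± 0.20, adjusted p = 0.0108) and Hadhb (0.94 ± 0.22, adjusted p = 0.0187), with 2.12% of all genes called. Without HFD sedentary replicate 4 the number was 6, and without HFD trained replicate 3 it was 1. Between triceps and scWAT none of the 10 differed in the running change on HFD, with 0.757% of all genes called, so 9 calls in triceps and 1 in scWAT are not shown to differ. On chow no member differed in the running change between triceps and scWAT or vWAT, with 0% and 0.0775% of all genes called.

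Within a tissue the 10 varied together to different degrees over the 20 libraries, given as a description since the libraries share diet and running groups and depth. In triceps the correlation of each member's log2 CPM with the mean of the others was 0.77 to 0.97 for all but Cpt1b, at 0.50. In scWAT it was 0.97 for Acadvl and 0.91 for Acaa2 but 0.59 for Acadm and 0.57 for Cpt1b. In vWAT it was lower, from 0.74 for Eci1 down to 0.06 for Etfdh. The 5 genes outside the 10 whose log2 CPM followed their standardised mean most closely were Mdh1, Hadh, Decr1, Sdhb and Ckmt2 in triceps (r of 0.95 to 0.96 among 4400 genes), Sucla2, Dnajc15, Idh3g, Ndufv1 and Cs in scWAT (0.90 to 0.93 among 7059 genes), and Uqcrc2, Eif4ebp1, Uqcrfs1, Atp5b and Idh3b in vWAT (0.85 to 0.88 among 6981 genes). Among these, Hadh and Decr1 act in β-oxidation itself, while Mdh1 is a cytosolic malate dehydrogenase and Cs the citrate synthase of the tricarboxylic acid cycle.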

How the data were processed

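Bulk 3′ tag libraries from 3 tissues of 20 mice were used. Reads were quantified with Salmon 0.14.2 on mm10, per the submitters' processing notes. For each library the deposited table has, per its headers, a column of estimated counts in whole numbers, as the authors left them, and a log2 column, which the authors made from CPM plus 1 and which served only as a unit check. How PCR copies and strand were handled is not given in the sources used here. Nothing in the labels says that mice of a group were housed or processed apart. In vWAT and in triceps, however, some sets of library codes held libraries of only 1 diet. The p values measure the spread between mice within groups, and diet changes in these tissues are mixed in part with code set.

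Each tissue was fitted over its 4 groups with edgeR 4.0.16 in R 4.3.3 (TMM, filterByExpr by group, robust quasi-likelihood), which kept 4410 genes in triceps, 6990 in vWAT and 7069 in scWAT. All p values are two-sided, and a gene was called at an adjusted p below 0.05. SE were computed from each change and its test statistic. Against total counts, TMM moved changes by −0.27 (diet in trained scWAT) to 0.18 (running on HFD in triceps). Tissue differences came from joint fits with the mouse as a block. Alternatives were DESeq2 1.42.0, other scalings, no filter, library-code sets, marker covariates and leaving out libraries. Of these, 4 were added after the data were seen (brown and beige covariate, leaving out high-muscle scWAT libraries, and leaving out vWAT libraries with heart or with muscle reads). Code sets are runs of 12 consecutive library numbers whose borders were placed after reads of other organs were seen. Every member was named, and other genes were taken from the up to 3 called genes per pathway list with the lowest adjusted p. Called list genes of some comparisons, such as HFD trained against chow trained scWAT, are not named. Pdk4, Ucp3, Ppargc1a, Pparg, Slc25a20, Cpt1a and Cd36 were also followed, and of these Ppargc1a, Cpt1a and Cd36 were called in no comparison. Ppara, Ppard, Esrra and Ppargc1b were listed too but gave no test in any tissue. Genes most alike were ranked on log2 CPM with a prior count of 2. The 10 members and the lists were chosen with earlier results of these data known. The test code was checked on simulated data. No 2 of 120 library pairs within groups were identical.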

Additional observations from a re-analysis of the deposited data

Results flagged for a closer look

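In 120 sets of 5 libraries (10 enzymes, 3 tissues, 4 groups), 1 library lay far from the other 4 in 8 sets, by Dixon's criterion. Chance alone gives such a flag in about 1 in 20 sets. In scWAT, chow trained replicate 2 was high for 3 enzymes at once, Acadm (1080 CPM), Acaa2 (900 CPM) and Etfdh (235 CPM), and the same library had 2424 counts of brown and beige markers, against 866 to 1410 in the other chow trained scWAT libraries. In HFD trained scWAT replicate 3 was high for Eci1 (259 CPM), and that library held 1624 such counts. In HFD sedentary vWAT, replicate 5 was low for Acadvl (97.2 CPM) and replicate 2 was low for Eci1 (66.1 CPM), and the diet call of each gene was lost without that library. In HFD trained triceps replicate 2 was high for Acadl (336 CPM), and without it Acadl was still called. Cpt1b in chow trained vWAT was above 0 in replicate 1 alone (4.57 CPM, from 3 counts).

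The tissues of the same mice differed in 2 comparisons by a test of the difference itself. The diet change in sedentary mice differed between scWAT and triceps for 2 members, Acadl and Acadvl, and the change with running on HFD differed between triceps and vWAT for 3 members, Acaa2, Acadl and Hadhb. Of all genes, 2.68% and 2.12% were called in these comparisons. The first number was 0 on total counts and 0 without any one of 6 mice, and the second was 1 to 6 with 1 mouse left out.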

How the results depend on the processing

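No member's log2 fold change that was called turned its direction under any alternative run. Counts of members called moved by over 1.5 times in these cases. In scWAT, the diet change in sedentary mice (5 called) had 2 without the lymph node libraries and 0 with the brown and beige covariate. The scWAT change with running on HFD (1) had 2 with DESeq2 and 2 with no filter, the diet change in trained mice (0) had 1 on total counts and 1 with the muscle covariate, and the interaction (0) had 1 with DESeq2. In vWAT, the diet change in sedentary mice (3) had 0 on total counts, with the code set as a factor, in the largest code set alone and without heart-read libraries, and 1 without muscle-read libraries. For running on chow in vWAT (0) the code set as a factor gave 1. For running on HFD in vWAT (1), total counts, the largest code set and leaving out muscle-read libraries gave 0, and the code set as a factor gave 2. For diet in trained vWAT (1), total counts, no filter, the code set as a factor, the largest code set and leaving out heart-read libraries gave 0. In triceps, running on chow (0) had 5 with DESeq2, 5 with no filter and 2 in the largest code set. The scWAT minus triceps diet difference (2) had 0 on total counts. Where no value above shows it, the cause was not tested.

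With 1 library left out at a time, the number called ran from 4 to 5 for diet in sedentary scWAT, 1 to 3 for diet in sedentary vWAT, 0 to 2 for running on HFD in vWAT, 0 to 1 for diet in trained vWAT, 0 to 2 for running on chow in triceps and 7 to 9 for running on HFD in triceps. For tissue differences it ran from 0 to 1 (diet, scWAT minus vWAT), 0 to 3 (diet, scWAT minus triceps) and 1 to 6 (running on HFD, triceps minus vWAT). Libraries of different groups came from different mice, but those of the same number often shared a set of library codes. Of 30 same-number pairs per tissue, 7 in triceps, 11 in vWAT and 16 in scWAT had deviations correlated above 0.1. The median correlation of same-number pairs was 0.13 in scWAT, against −0.06 for pairs of other numbers. In vWAT it was 0.034 against −0.011, and in triceps 0.029 against −0.0060. The part of the code sets in this was not tested, and the main fits do not pair mice by number. The replicate block gave 2 called members in place of 1 for running on HFD in vWAT (Cpt2 added) and 0 in place of 1 for diet in trained vWAT, and changed no other number of members called by over 1.5 times. Among single-gene changes under alternatives, 498 kept their side of the threshold, 81 lost a call and 28 gained one. Cpt1b in fat and Cpt2 in triceps rest on few counts, which limits both.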
